A study of Mus musculus with 13 samples.

Results

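The genes described are 10 enzymes and receptors of the prostanoid pathway, measured in 4 kinds of mouse liver cell. They were taken by symbol: Ptgs1, Ptgs2, Ptges, Ptgis, Ptgds, Hpgds and Tbxas1 encode synthases, and Ptger2, Ptger3 and Ptger4 encode receptors for prostaglandin E. The arrays carried single-symbol probe sets for 19537 genes, among them 9 of the 10, with 1 probe set each. No probe set bore the symbol Ptgs1, so that gene has no value here. Ptger3 did not pass the filter on low values and was not tested, which left 8 tested genes. A gene high in a single population could pass that filter through that population alone, so the counts of called genes given here are descriptions.

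Total RNA from naive C57BL/6 mice aged 6 to 10 weeks was hybridised to 13 arrays. Hepatic stellate cells (HSC), the vitamin A storing pericytes of the sinusoid, came from culture in DMEM with fetal bovine serum (10%). Of these, 2 arrays were made after 1 day, 1 after 7 days and 1 after 14 days. The remaining groups, with 3 arrays each, were sorted without culture: Kupffer cells, which are the macrophages of the liver, endothelial cells of the liver sinusoids (LSEC), and hepatocytes. Every HSC array was of cultured cells, so for HSC the cell type and the culture cannot be told apart. Replicates are called biological in the titles, other than the single arrays of 7 and 14 days. Since nothing says that they came from separate animals or cultures, p-values measure the spread between these arrays.

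Prostanoids are short-lived lipid signals made from arachidonic acid. A phospholipase frees the fatty acid from membranes, a cyclooxygenase (Ptgs1, made in many cells, or the inducible Ptgs2) turns it into prostaglandin H, and a terminal synthase converts that into a prostaglandin, prostacyclin or thromboxane. In liver, prostaglandins from non-parenchymal cells are known to act on hepatocytes and on inflammation, thromboxane constricts the sinusoids and prostacyclin relaxes them.

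The promoters of Ptgs2, Hpgds and Tbxas1 are shown because these 3 genes stood apart in 1 population each, Ptgs2 in HSC and the other two in Kupffer cells. RefSeq windows of 300 bases (250 before and 50 after the start of the gene, GRCm38.p6) were matched for 9 of the 10 genes. The Ptgs2 window is chr1:150099781-150100080 on the plus strand, that of Hpgds chr6:65144681-65144980 on the minus strand and that of Tbxas1 chr6:38918736-38919035 on the plus strand. Each is printed 5′ to 3′, with matches to 6 searched motifs in capitals.
Ptgs2: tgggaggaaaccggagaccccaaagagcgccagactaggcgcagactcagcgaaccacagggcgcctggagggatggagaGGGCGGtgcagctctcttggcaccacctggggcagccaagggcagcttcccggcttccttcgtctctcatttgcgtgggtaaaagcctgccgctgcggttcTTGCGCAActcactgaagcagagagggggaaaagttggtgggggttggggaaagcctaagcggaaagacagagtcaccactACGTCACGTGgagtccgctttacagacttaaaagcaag
Hpgds: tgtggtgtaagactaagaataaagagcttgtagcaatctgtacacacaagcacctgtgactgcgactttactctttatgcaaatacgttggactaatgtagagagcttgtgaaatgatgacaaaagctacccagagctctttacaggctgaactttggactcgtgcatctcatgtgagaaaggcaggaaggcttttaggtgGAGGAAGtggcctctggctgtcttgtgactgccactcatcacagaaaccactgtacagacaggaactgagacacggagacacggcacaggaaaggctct
Tbxas1: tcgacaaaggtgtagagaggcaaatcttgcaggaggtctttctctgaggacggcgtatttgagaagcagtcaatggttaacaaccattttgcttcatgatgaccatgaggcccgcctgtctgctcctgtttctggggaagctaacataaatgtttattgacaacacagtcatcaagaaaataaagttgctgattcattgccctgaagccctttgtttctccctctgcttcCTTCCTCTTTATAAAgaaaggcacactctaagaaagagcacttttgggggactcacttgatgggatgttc
The motifs were searched on both strands and chosen with these sequences in view, and positions count from 1 at the 5′ end. The Ptgs2 window held the C/EBP-type motif TTGCGCAA at 182 to 189, and 0.183% of all 32851 windows of this length hold it. It also held the core of the cyclic AMP response element, spelled ACGTCA here, at 263 to 268 (in 7.51% of all windows). An E-box followed at 267 to 272 and overlapped that core. The letters searched for the E-box were CACGTG, present in 7.15% of all windows. Upstream lay a GC box at 81 to 86, searched as GGGCGG and present in 35.7% of all windows. Of the windows not printed, those of Ptges, Ptger3 and Ptger4 also held a GC box. The Hpgds window held the ETS motif of the PU.1 type at 202 to 208, and the Tbxas1 window held it on the reverse strand at 231 to 237. The Ptgs1 window, not printed, also held it, at 227 to 233. The letters of this ETS motif are GAGGAAG, and 13.6% of all windows hold them. The Tbxas1 window also held the TATA box on the forward strand at 240 to 245 and, overlapping that, on the reverse strand at 238 to 243. That motif was searched as TATAAA and is in 13.6% of all windows too. A match describes the letters of the window and not a bound site.

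Array medians lay between 216.5 and 232.9, and arrays of a group correlated at 0.984 to 0.996 across genes. All values below are the deposited linear intensities of a probe set. Levels are compared between groups for the same probe set and never between genes. Log2 differences are on the log2(intensity + 83) scale, which understates the fold of a low gene, so the ratio of mean intensities is given beside the large ones. A gene was called when limma gave an adjusted p under 0.05 and the log2 difference was at least 1. The summed level of 10 Kupffer cell markers was 77002 to 79383 in Kupffer cells. That of 10 HSC markers was 24718 to 26102 in 1-day HSC, where Gfap alone was not above the pooled median of 224 on either array. Called higher in their own cells than in each other population were 10 of 10 Kupffer cell and 10 of 10 hepatocyte markers (6.53% and 6.80% of all genes). So were 8 of 10 LSEC markers (2.35%) and 5 of the 9 tested HSC markers (2.59%), namely Des, Reln, Pdgfrb, Dcn and Colec11. The 1-day HSC arrays also held hepatocyte markers (sum 11069 to 19622, against 125617 to 130554 in hepatocytes) and LSEC markers (sum 11443 to 12596, against 52148 to 71175 in LSEC). LSEC markers on the Kupffer cell arrays summed to 12831 to 15093, and single markers there stood at 3.33% to 69.5% of their LSEC means (median 5.66%). Most of that sum was Cdh5, with a mean of 9635 in Kupffer cells, 5989 in 1-day HSC and 13861 in LSEC. Next in Kupffer cells were Pecam1 (1187, against 5675 in LSEC) and Clec4g (1118, against 2159). The part of these hepatocyte and LSEC markers in the levels given for Kupffer cells and 1-day HSC was not tested.

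Of the 8 tested genes, 3 were higher in 1 population than in each of the other 3, against 18.3% of all tested genes. Ptgs2 was the one higher in 1-day HSC (2.59% of all genes), and Hpgds and Tbxas1 were higher in Kupffer cells (6.53%). The count of all genes higher in 1-day HSC, 313, was 205 without replicate 1 of 1-day HSC and 168 without replicate 2. In LSEC 0 of the 8 were called higher than in each of the other 3 (2.35% of all genes), and 0 were at an unadjusted p under 0.05. In hepatocytes 0 of the 8 were called (6.80% of all genes), and 1, Ptgds, was higher at an unadjusted and an adjusted p under 0.05 against each of the others. In Kupffer cells 3 were at those p-values, the third being Ptger4. The shares of all genes are for calls and not for these p-values alone. Bulk arrays cannot tell fewer cells of a type from less RNA per cell.

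Ptgs2 (probe set 10350516), the inducible cyclooxygenase, had intensities of 7876 and 7657 in 1-day HSC, against 219, 184 and 238 in Kupffer cells, 158, 136 and 202 in hepatocytes and 122, 147 and 149 in LSEC. The 1-day HSC arrays lay far above all others, and the other 3 populations lay around the pooled median or under it. The ratio of means was 36.4 over Kupffer cells (log2 difference 4.73, SE 0.118, adjusted p = 1.4e-11), 47.0 over hepatocytes (log2 difference 4.99) and 55.7 over LSEC (log2 difference 5.14). Kupffer cells, hepatocytes and LSEC differed by less than the minimum size. Kupffer cells were 0.41 above LSEC on the log2 scale (adjusted p = 0.0042), and hepatocytes overlapped with both.

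Ptges (probe set 10481518), the inducible prostaglandin E synthase that is often paired with Ptgs2, had intensities of 527 and 617 in 1-day HSC, 584, 412 and 725 in hepatocytes, 273, 241 and 206 in LSEC and 177, 215 and 176 in Kupffer cells. The 1-day HSC arrays lay within the range of the hepatocyte arrays (log2 difference 0.021, SE 0.171, adjusted p = 0.92), and both groups lay above every LSEC and Kupffer cell array. The gene was higher in 1-day HSC than in Kupffer cells (log2 difference 1.27, adjusted p = 3.1e-05) and LSEC (1.02, adjusted p = 0.00039), and higher in hepatocytes than in Kupffer cells (1.24, adjusted p = 1.1e-05) and LSEC (1.00, adjusted p = 8.4e-05). Both calls over LSEC rested on single arrays. The difference of 1-day HSC from LSEC was 0.94 without LSEC replicate 3 and 0.92 without replicate 2 of 1-day HSC, and that of hepatocytes from LSEC was 0.97, 0.84 and 0.92 without hepatocyte replicate 1, hepatocyte replicate 3 or LSEC replicate 3. Ptges in 1-day HSC stood at 99.7% of its hepatocyte mean, and the 10 hepatocyte markers there at 1.15% to 40.8% of theirs (median 6.62%). The part of hepatocyte RNA in the 1-day HSC level of Ptges was not tested.

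Ptgis (probe set 10489878), prostacyclin synthase, was high on the arrays of both Kupffer cells and HSC. Intensities were 1965, 2308 and 1685 in Kupffer cells and 2187 and 1652 in 1-day HSC, and those groups overlapped (log2 difference 0.049, SE 0.133, adjusted p = 0.76). LSEC had 274, 275 and 289 and hepatocytes 246, 254 and 280.2. The mean of Kupffer cells was 7.12 times that of LSEC (log2 difference 2.50, SE 0.119, adjusted p = 1.9e-09) and 7.64 times that of hepatocytes (2.58). The log2 differences of 1-day HSC were 2.45 over LSEC and 2.53 over hepatocytes, both called. In Kupffer cells the sum of the 10 HSC markers was 2451 to 3832, each standing at 3.56% to 94.6% of its 1-day HSC mean (median 39.6%). Des, Pdgfrb and Reln were at the low end, with means of 133, 139 and 159 in Kupffer cells, against 2819, 3353 and 4464 in 1-day HSC. Dcn was there too, at 539 against 11479. The high end was Gfap, at 105 against 111, under the pooled median in both groups. Hand2 (189 against 266) and Lrat (234 against 305) also had low means in 1-day HSC. Hgf was at 996 in Kupffer cells, against 1338 in 1-day HSC. The part of HSC RNA in the Kupffer cell level of Ptgis was not tested. In 1-day HSC the Kupffer cell markers stood at 1.503% to 10.1% of their Kupffer cell means, and Ptgis at 96.6%. The part of Kupffer cell RNA in the 1-day HSC level of Ptgis was not tested either.

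Hpgds (probe set 10545101), the haematopoietic prostaglandin D synthase, had 2609, 2013 and 2283 in Kupffer cells, against 111 and 161 in 1-day HSC, 124, 114 and 109 in LSEC and 92.7, 70.4 and 99.6 in hepatocytes. Every array outside Kupffer cells lay under the pooled median. The ratio of means was 17.0 over 1-day HSC (log2 difference 3.45, SE 0.127, adjusted p = 2.2e-10), 19.9 over LSEC (3.58) and 26.3 over hepatocytes (3.802). Mast cells are another known source of this enzyme, and 7 of 7 mast cell markers were not above the pooled median on any Kupffer cell array (sum 504 to 549.7, against 444 to 776 elsewhere). Their part in the Hpgds level was not tested. Ptgds (probe set 10480734), the other prostaglandin D synthase, also a lipid carrier, had 231, 246 and 255 in hepatocytes, 176, 206 and 183 in Kupffer cells, 194 and 181 in 1-day HSC and 169.8, 150.1 and 175 in LSEC. The hepatocyte arrays lay above all others, but the largest difference, from LSEC, was 0.40 on the log2 scale (SE 0.076, adjusted p = 0.00050), under the minimum size.

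Tbxas1 (probe set 10537410), thromboxane synthase, had 3482, 3039 and 2855 in Kupffer cells, against 267 and 312 in 1-day HSC, 141, 110.3 and 102 in hepatocytes and 97.3, 112 and 102 in LSEC. Its ratio of means was 10.8 over 1-day HSC (log2 difference 3.10, SE 0.111, adjusted p = 1.7e-10), 26.5 over hepatocytes (3.998) and 30.1 over LSEC (4.10). The order below Kupffer cells was 1-day HSC, then hepatocytes and LSEC, which overlapped. The differences of 1-day HSC were just under the minimum size, 0.99 over LSEC (adjusted p = 1.5e-05) and 0.89 over hepatocytes (adjusted p = 1.6e-05). The first was 1.03 and called without LSEC replicate 2, and 1.08 without replicate 1 of 1-day HSC. Tbxas1 in 1-day HSC stood at 9.26% of its Kupffer cell mean. The 10 Kupffer cell markers there stood at 1.503% to 10.1% of theirs (median 5.43%). The part of Kupffer cell RNA in the 1-day HSC level of Tbxas1 was not tested. Platelets also carry this enzyme, and the 5 platelet markers with a probe set summed to 1285 to 2732 in Kupffer cells and 975 to 1585 elsewhere. Of the 4 tested, Ppbp alone was called higher in Kupffer cells than in each other population (6.53% of all genes). Its Kupffer cell arrays had 269, 308 and 1396. Pf4 averaged 345 in Kupffer cells and 567 in 1-day HSC. The part of platelet RNA in the Kupffer cell level was not tested.

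**Figure D1:**
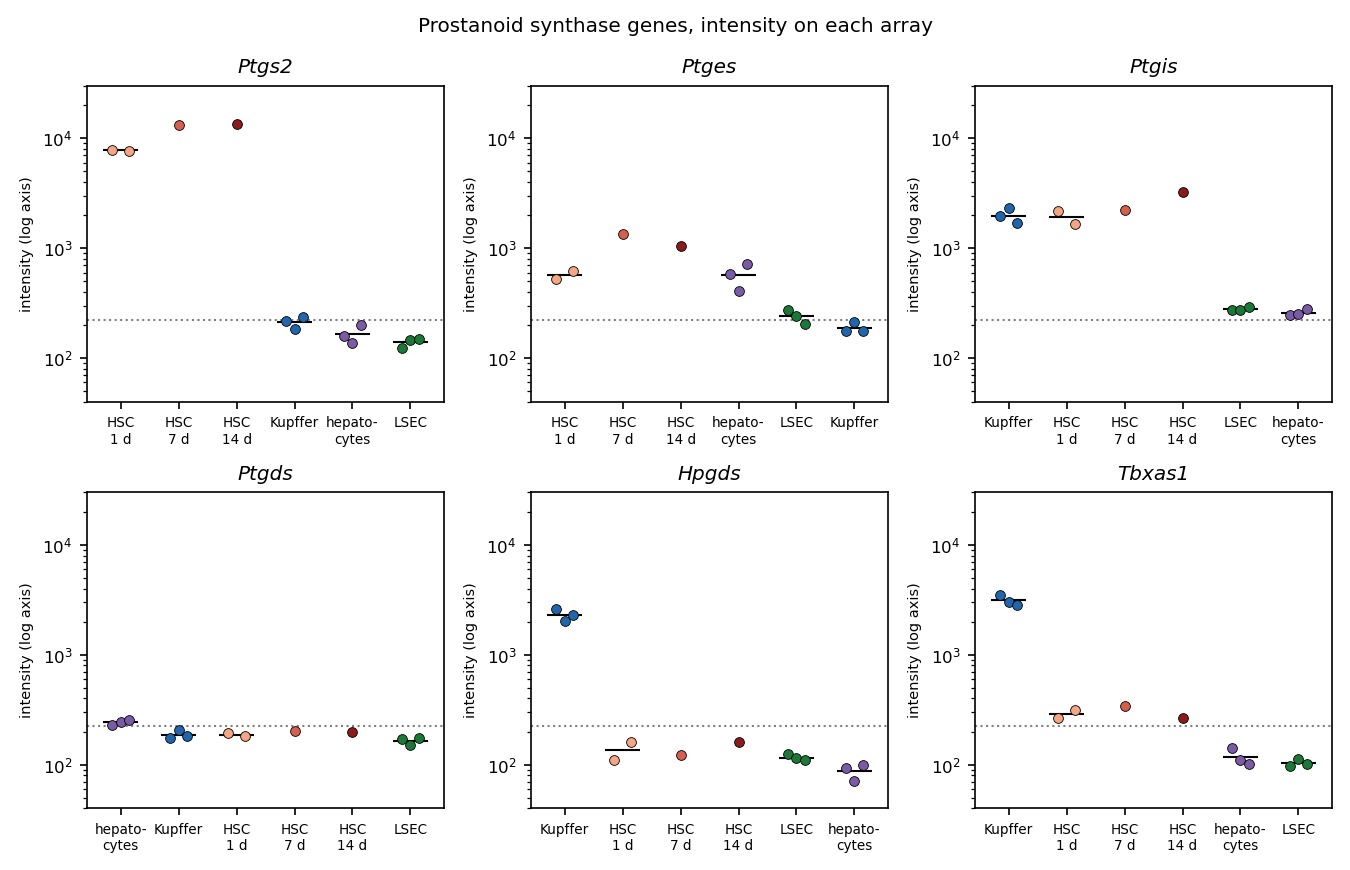
Intensity of 6 prostanoid synthase genes on each of 13 arrays (log axis); points are arrays, bars are group means, and the dotted line is the pooled median of 224. Ptgs2 stands above the line by a wide margin on the HSC arrays alone, Hpgds on the Kupffer cell arrays alone, and Ptgis on both kinds.

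Ptger2 and Ptger4 encode the prostaglandin E receptors that raise cyclic AMP, and Ptger3 the one that mainly lowers it. Ptger2 (probe set 10414271) had 345, 337 and 300.1 in Kupffer cells and 252 and 305 in 1-day HSC, against 100.0, 97.9 and 99.0 in hepatocytes and 103, 83.8 and 99.5 in LSEC. Kupffer cells and 1-day HSC overlapped (log2 difference 0.18, adjusted p = 0.099), and all their arrays lay above those of hepatocytes and LSEC. The gene was higher in Kupffer cells than in LSEC (log2 difference 1.20, SE 0.082, adjusted p = 6.5e-08) and hepatocytes (1.17, adjusted p = 5.5e-08), and higher in 1-day HSC than in LSEC (1.02, adjusted p = 2.5e-06). That last call was lost without LSEC replicate 2 (0.97) or replicate 2 of 1-day HSC (0.91). The difference of 1-day HSC from hepatocytes, 0.99, was under the minimum size and was 1.09 and called without replicate 1 of 1-day HSC.

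Ptger4 (probe set 10427461) had 639, 519 and 738 in Kupffer cells, against 319.8 and 343 in 1-day HSC, 208, 181 and 136 in hepatocytes and 152, 135 and 144 in LSEC. Kupffer cells lay above all others, and 1-day HSC above hepatocytes and LSEC, which overlapped. The gene was higher in Kupffer cells than in LSEC (log2 difference 1.65, SE 0.122, adjusted p = 1.4e-07, ratio of means 4.41) and hepatocytes (1.47, adjusted p = 2.9e-07, ratio 3.60). The differences of Kupffer cells from 1-day HSC (0.78, adjusted p = 0.00028), of 1-day HSC from LSEC (0.87, adjusted p = 0.00024) and of 1-day HSC from hepatocytes (0.69, adjusted p = 0.00072) were under the minimum size. In 1-day HSC, Ptger2 stood at 85.2% and Ptger4 at 52.5% of their Kupffer cell means. Ptger3 (probe set 10497079) had 103 and 199 in 1-day HSC, 74.8, 74.6 and 75.7 in hepatocytes, 64.8, 62.7 and 71.9 in Kupffer cells and 61.0, 63.4 and 55.2 in LSEC. No array lay above the pooled median, and the 1-day HSC replicates lay further apart than those of any other group.

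**Figure D2:**
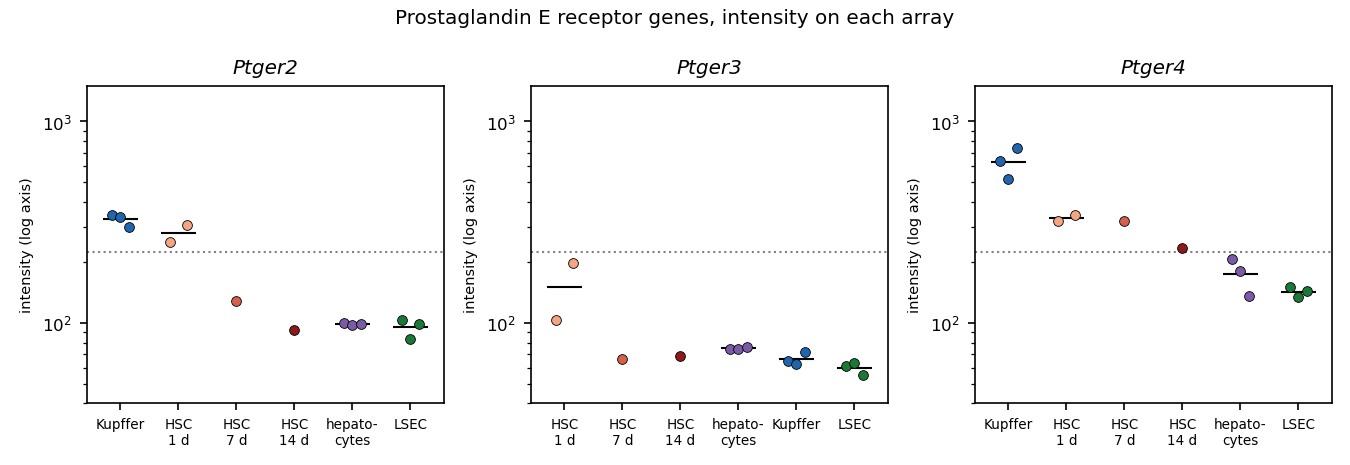
Intensity of 3 prostaglandin E receptor genes on each of 13 arrays (log axis); points are arrays, bars are group means, and the dotted line is the pooled median of 224. Ptger2 and Ptger4 are highest in Kupffer cells and next in 1-day HSC, and Ptger2 lies under the line on the 7-day and 14-day HSC arrays.

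Counted by pair of populations, Kupffer cells were higher than LSEC in 5 of the 8 genes (9.54% of all genes) and higher than hepatocytes in the same 5 (13.7%): Ptgis, Hpgds, Tbxas1, Ptger2 and Ptger4. The median log2 difference of Kupffer cells for the 8 was 1.42 over LSEC, 1.32 over hepatocytes and 0.12 over 1-day HSC. For all genes these medians were -0.055, -0.022 and -0.024. Genes that passed the filter through Kupffer cells or HSC alone are among the 8, so the medians are descriptions too. 1-day HSC were higher than LSEC in 4 (5.60%), Ptgs2, Ptges, Ptgis and Ptger2, and higher than hepatocytes in Ptgs2 and Ptgis, 2 of the 8 (12.3%). Between Kupffer cells and 1-day HSC, 2 genes were higher in Kupffer cells (11.7%) and 2 in 1-day HSC (12.9%). Hepatocytes were higher than LSEC (10.0%) and than Kupffer cells (12.0%) in 1 gene, Ptges. These comparisons share arrays.

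In culture, Ptgs2 was high on every day. Its intensities were 7876 and 7657 on day 1, 13292 on day 7 and 13618 on day 14. The 7-day and 14-day arrays, merged as long-cultured HSC, had 1.73 times the day 1 mean (log2 difference 0.79, SE 0.126, adjusted p = 0.00029), which is under the minimum size. Ptges had 527 and 617 on day 1, 1338 on day 7 and 1040.0 on day 14, or 2.08 times the day 1 mean (log2 difference 0.95, SE 0.195, adjusted p = 0.0016). That difference was 1.05 and called without replicate 2 of day 1, and 1.12 and called without the 14-day array. Ptgis had 2187 and 1652 on day 1, 2208 on day 7 and 3262 on day 14 (log2 difference 0.48, SE 0.179, adjusted p = 0.045). The 7-day array of Ptgis lay just above the higher of the day 1 arrays.

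Ptger2 was lower on the later days, with 252 and 305 on day 1, 129 on day 7 and 92.4 on day 14. Both later arrays lay below both day 1 arrays, near the levels of LSEC and hepatocytes (log2 difference -0.91, SE 0.112, adjusted p = 4.0e-05). That difference was -1.01 and called without replicate 1 of day 1, and -1.04 and called without the 7-day array. Ptger4 had 319.8 and 343 on day 1, 319 on day 7 and 237 on day 14 (log2 difference -0.21, adjusted p = 0.33). Ptger3 had 103 and 199 on day 1, 66.7 on day 7 and 68.8 on day 14. Hpgds, with 122 on day 7 and 161 on day 14, Tbxas1, with 339 and 265, and Ptgds, with 202 and 199, had log2 differences of 0.041, 0.043 and 0.068 from day 1.

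Of the 8 genes, 0 were called in the culture comparison, against 9.79% of all genes (5.52% higher and 4.27% lower), while limma's unadjusted p was under 0.05 in 4 and its adjusted p in the same number, 3 higher (Ptgs2, Ptges, Ptgis) and 1 lower (Ptger2). At an adjusted p under 0.05 of any size stood 44.0% of all genes, a share close to that of the 8. Over the 9 measured genes, 4 had both later arrays above both day 1 arrays, as did 30.0% of all 19537 genes, and 3 had both below, as did 32.4%. The 7-day and 14-day arrays were merged although their times differ, and the spread came from all groups, so these p-values do not measure replicate cultures. Several marker sums moved over the same days. Hepatocyte markers summed to 1221 on day 7 and 1203 on day 14, LSEC markers to 2206 and 2395, and Kupffer cell markers to 2428 and 2846, against 3025 to 4209 on day 1. HSC markers summed to 24718 to 26102 on day 1, 25554 on day 7 and 23684 on day 14. Sums of other mesenchymal, mesothelial and cholangiocyte lists were higher on the later days. Cholangiocyte markers summed to 837 to 851 on day 1, 1435 on day 7 and 1174 on day 14. Myofibroblast markers summed to 38766 to 44453 on day 1, 74934 on day 7 and 80865 on day 14, and smooth muscle and pericyte markers to 4599 to 4794, 11642 and 13161. Portal fibroblast markers summed to 2605 to 2719, 11556 and 16529.7, and mesothelial markers to 985 to 1064, 1629 and 3503. Their part in the culture differences was not tested.

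**Figure D3:**
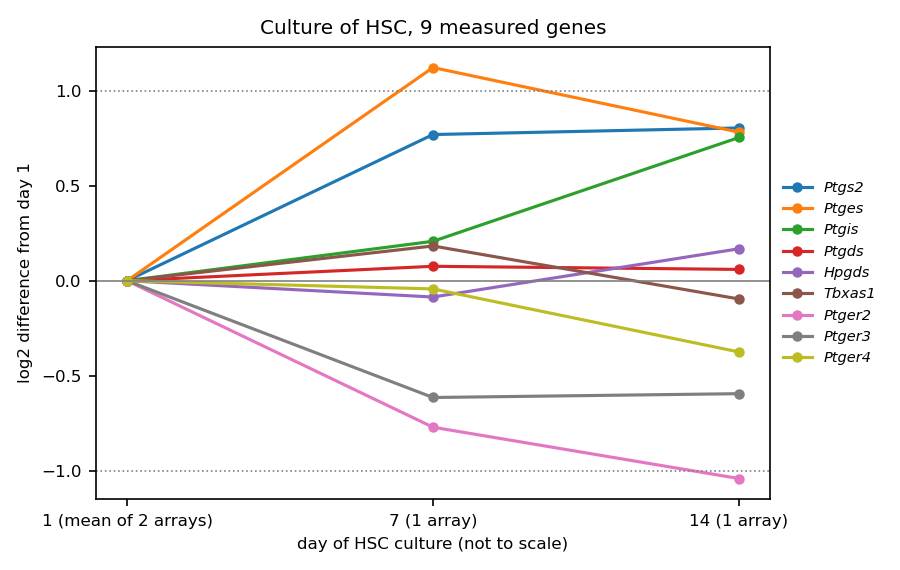
Log2 difference of each of 9 genes from its day 1 mean at 7 and 14 days of HSC culture, on the log2(intensity + 83) scale; dotted lines mark the minimum size of 1. Ptges and Ptgs2 lie above 0.7 on both days, Ptgis on day 14, and Ptger2 reaches -1.04 on day 14.

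Set against the freshly sorted cells, long-cultured HSC were higher than each of the 3 in Ptgs2 alone (5.05% of all genes), with ratios of means of 63.0 over Kupffer cells, 81.4 over hepatocytes and 96.6 over LSEC. They were higher than LSEC in 4 of the 8 genes (8.67%): Ptgs2, Ptges (log2 difference 1.97), Ptgis (2.93) and Tbxas1 (1.04). The Tbxas1 difference was 0.90 and not called without the 7-day array. In long-cultured HSC the gene stood at 9.66% of its Kupffer cell mean, and Kupffer cell markers had a median of 3.46% and a highest value of 9.42%. The part of Kupffer cell RNA in this level of Tbxas1 was not tested. Long-cultured HSC were higher than hepatocytes in Ptgs2 and Ptgis, 2 of the 8 (13.1%). Ptges was 0.97 above hepatocytes on the log2 scale, 1.14 and called without hepatocyte replicate 3 and, to the same rounding, without the 14-day array. Against Kupffer cells they were higher in 2 (12.2%), Ptgs2 and Ptges (2.22), and lower in 3 (11.2%), Hpgds (-3.41), Tbxas1 (-3.06) and Ptger2 (-1.09). The Ptger2 difference was -0.95 and not called without the 14-day array. The Ptger4 difference of -0.98 was not called, and was -1.10 and called without Kupffer cell replicate 2 and -1.15 and called without the 7-day array.

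Other genes of the pathway were taken from lists written with earlier results of these data known. Of 9 tested genes for the release of arachidonic acid, 2 were higher in Kupffer cells than in each other population (6.53% of all genes). These were Pla2g4a and Pla2g15. Mgll alone was lower there (2.28%), and Faah alone was higher in hepatocytes (6.80%). Pla2g4a, the cytosolic phospholipase that frees arachidonic acid, averaged 2724 ± 68.8 in Kupffer cells (SD, n = 3), against 664 ± 13.3 in 1-day HSC (SD, n = 2), 84.2 in LSEC and 78.1 in hepatocytes (log2 difference from 1-day HSC 1.91, adjusted p = 2.1e-09). In culture it was the 1 gene of this list called, at 655 and 674 on day 1, 1381 on day 7 and 1908 on day 14 (log2 difference 1.19, adjusted p = 1.6e-05). Mgll, which hydrolyses a monoacylglycerol source of arachidonic acid, averaged 144 in Kupffer cells, against 435 in hepatocytes, 757 in 1-day HSC and 852 in LSEC.

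Of 5 tested genes of prostanoid breakdown and transport, 1 was higher in each of Kupffer cells (Hpgd), LSEC (Slco2a1) and hepatocytes (Slco2b1). The shares of all genes were 6.53%, 2.35% and 6.80%. Abcc4, an exporter, was the 1 lower in hepatocytes (2.72% of all genes). Hpgd, the dehydrogenase that inactivates prostaglandins, averaged 10119 ± 966 in Kupffer cells, against 1942 ± 811 in hepatocytes (SD, n = 3 each), 388 in 1-day HSC and 286 in LSEC (log2 difference from hepatocytes 2.40, adjusted p = 4.2e-06). Slco2a1, the prostaglandin uptake carrier, averaged 4270 ± 703 in LSEC, against 1655 ± 159 in hepatocytes (SD, n = 3 each; log2 difference 1.32, adjusted p = 1.2e-06), 1471 in Kupffer cells and 755 in 1-day HSC. In culture Slco2a1 rose, with 848 and 661 on day 1, 4075 on day 7 and 2886 on day 14 (log2 difference 2.08, adjusted p = 2.2e-06). Abcc4 fell, with 1318 and 1288 on day 1, 522 on day 7 and 415 on day 14 (log2 difference -1.34, adjusted p = 0.00093). Those were the calls in culture among the 6 genes of this list tested there (9.79% of all genes were called).

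A list of other receptors had 5 tested genes: the prostanoid receptors Ptger1 and Tbxa2r, Ptgfrn, and the nuclear receptors Pparg and Ppard, which can bind prostanoids. Of these and of 4 other tested prostanoid synthases, 0 were higher or lower in 1 population than in each of the others. Of all genes, 18.3% were higher in 1 population. At an adjusted p under 0.05, Ptges3, the cytosolic prostaglandin E synthase, was 0.88 higher in 1-day HSC than in Kupffer cells on the log2 scale, under the minimum size. Cbr1, a carbonyl reductase that acts on prostaglandins, averaged 924 in hepatocytes, against 498 in Kupffer cells, 283 in LSEC and 236 in 1-day HSC, and missed the minimum size against Kupffer cells alone (0.78). Pparg was higher in Kupffer cells (1173) than in 1-day HSC (355, log2 difference 1.51, adjusted p = 5.8e-06) and hepatocytes (406, 1.35), and Ppard was lower in Kupffer cells (1077) than in 1-day HSC (2505, log2 difference -1.17, adjusted p = 3.2e-06). Tbxa2r, the thromboxane receptor, averaged 239 in Kupffer cells, 237 in 1-day HSC, 242 in LSEC and 258 in hepatocytes, with no pair past an adjusted p of 0.05. Its mean in long-cultured HSC was 412 (log2 difference from day 1 0.63, adjusted p = 0.00030), under the minimum size. In culture, 1 of the 5 genes of the receptor list was called, Ptgfrn, a regulator of the prostaglandin F receptor (1.17, adjusted p = 9.1e-06), and 0 of the 4 synthases.

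The leukotriene branch uses the same fatty acid. Of its 5 tested genes, 2 were higher in Kupffer cells than in each other population (6.53% of all genes). Alox5ap, which presents arachidonic acid to the lipoxygenase, averaged 4160 ± 161 in Kupffer cells (SD, n = 3), against 354 in 1-day HSC (log2 difference 3.28, adjusted p = 3.2e-11), 159 in hepatocytes and 153 in LSEC. Cysltr1, a receptor for cysteinyl leukotrienes, averaged 1402 ± 146 in Kupffer cells (SD, n = 3), against 108 in 1-day HSC (log2 difference 2.96, adjusted p = 5.2e-11). Alox5 itself averaged 247 in Kupffer cells and 125 to 135 in the other 3, under the minimum size (largest log2 difference 0.67). In culture 0 of the 5 were called (9.79% of all genes).

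**Figure D4:**
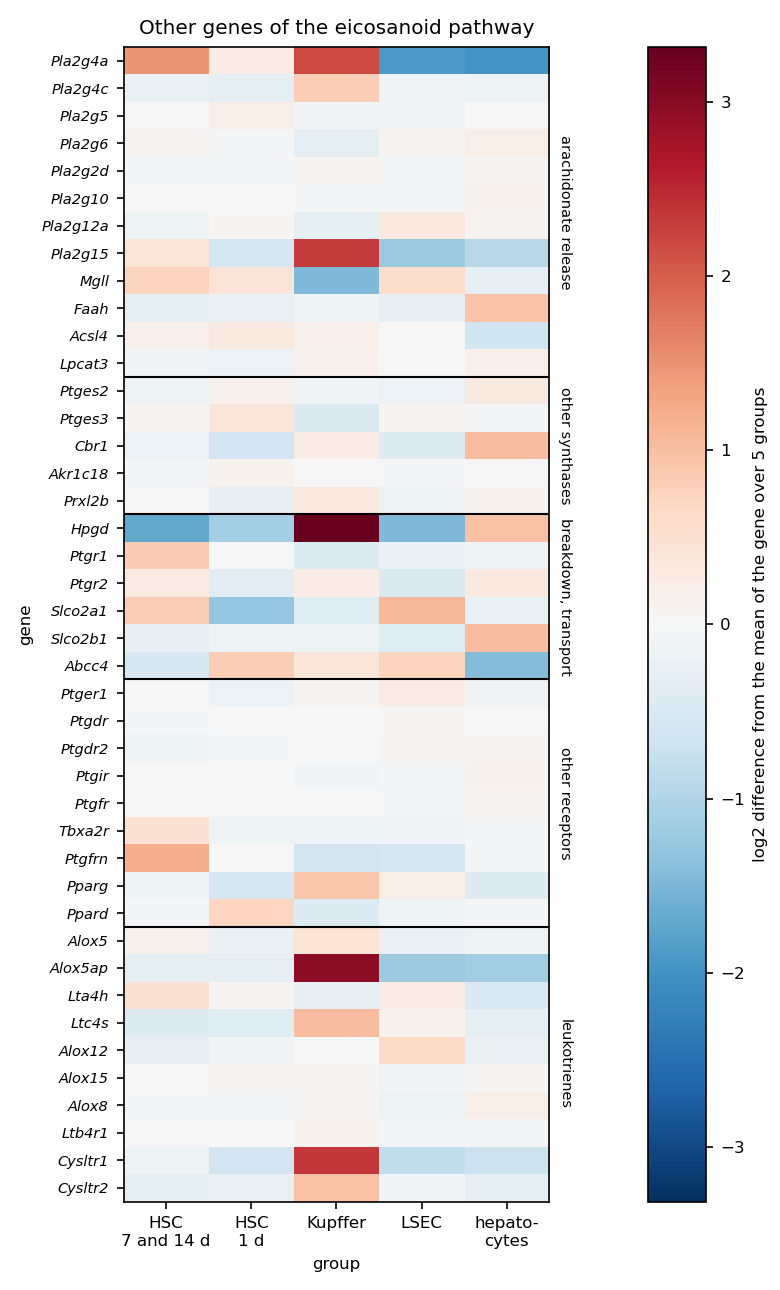
Other genes of arachidonate release, prostanoid synthesis, breakdown and transport, prostanoid receptors and leukotrienes, tested or not, as the log2 difference of a group mean from the mean of the gene over 5 groups (colour). Red cells mark Pla2g4a, Pla2g15, Hpgd, Alox5ap and Cysltr1 in Kupffer cells, and Slco2a1 is highest in LSEC and long-cultured HSC.

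Ptgs2 is itself an early response gene, so genes of that kind and inflammatory genes were listed beside it. Of 18 tested immediate early genes, 6 were higher in Kupffer cells than in each other population (6.53% of all genes). The 4 with the largest difference from the nearest were Fosb (3.89 over 1-day HSC), Fos (3.63 over hepatocytes), Nr4a1 (2.57 over 1-day HSC) and Ier2 (1.96 over hepatocytes). Of 13 tested inflammatory genes, 6 were higher in Kupffer cells (6.53%). Among them were Il1b (3.67 over 1-day HSC), Il1a (3.41 over LSEC), Tnf (2.66 over LSEC) and Il6 (2.50 over 1-day HSC). Fosl1 was lower in Kupffer cells than in each other population (2.28% of all genes), at -2.65 from hepatocytes. Its means were 229.7 in Kupffer cells, 4505 in 1-day HSC, 2572 in LSEC and 1889.9 in hepatocytes. Ptgs2 was at 184 to 238 on those same Kupffer cell arrays. Egr1 and Hspa1a were lower in LSEC than in each other population (0.406% of all genes were). Their differences from 1-day HSC, the nearest, were -1.25 and -1.04. Il1a (-1.73 from 1-day HSC) and Ccl2 (-1.09 from Kupffer cells) were lower in hepatocytes (2.72%). In 1-day HSC, 1 gene of each list was higher than in each other population (2.59%), Nr4a2 (1.01 over LSEC) and Csf1 (1.80 over LSEC). In culture 5.52% of all genes rose and 4.27% fell. There, 3 immediate early genes rose (Fosb 2.15, Nr4a1 1.98, Egr3 1.21) and 2 fell (Nr4a2 -1.96, Fosl1 -1.06). Of the inflammatory genes 2 rose (Il6 2.31, Lif 1.47) and 5 fell, the largest being Cxcl2 (-3.98), Cxcl1 (-1.82), Il1a (-1.45) and Nfkbia (-1.43).

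A list of cyclic AMP signalling genes was read beside Ptger2 and Ptger4, and its link to these receptors was not tested. It includes phosphodiesterases, which break cyclic AMP down. Its genes higher in 1 population were spread over Kupffer cells, LSEC and 1-day HSC. Of 14 tested, 2 adenylyl cyclases were higher in Kupffer cells than in each other population (6.53% of all genes). They were Adcy7 (2.23 over 1-day HSC) and Adcy4 (1.01 over LSEC). Pde4d, a phosphodiesterase, was lower in Kupffer cells (2.28%), at -1.35 from hepatocytes. LSEC were higher than each other population in Rapgef3 (1.90 over 1-day HSC), a cyclic AMP sensor, and Pde4d (1.26 over 1-day HSC), against 2.35% of all genes. 1-day HSC were so in Prkar2b (1.25 over LSEC), a regulatory subunit of protein kinase A (2.59%). In culture, Prkar2b (-1.22) and Pde3b (-1.04) fell (4.27% of all genes) and 0 of the 14 rose (5.52%).

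The genes outside the set whose log2 values followed a member most closely over the 13 arrays are given as a description, since arrays of a group share their cells. They were Pde1a (Pearson r 0.997), Pdgfrb (0.996) and Cacna2d1 (0.996) for Ptgs2, Pdgfrb being an HSC marker, and Tnfaip6 (0.968), Adgra1 (0.960) and Tead3 (0.958) for Ptges. For Ptgis they were Clstn1 (0.981), Cd44 (0.979) and Axl (0.975). The nearest to Hpgds were Lair1, Slc28a2 and Fcgr1 (each 0.997), and to Tbxas1 Milr1 (0.993), Pilra (0.992) and Csf1r (0.992), the receptor of the macrophage growth factor. For Ptger2 they were Tgfbi (0.964), Dennd2d (0.963) and Tnfrsf21 (0.959), for Ptger4 Mapk14 (0.979), Ttc7 (0.970) and Dock10 (0.970), and for Ptgds, whose values span a narrow range, Lonp2 (0.948), Pkp1 (0.942) and Lrtm1 (0.941).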

How the data were processed

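The deposited table holds 1 linear intensity per probe set and array (25194 probe sets, 10.6 to 28854). Affymetrix Expression Console and MAS5 5.0 are named, with neither role nor order, per the submitters' processing notes. The background correction, the summary method and the genome build are not given in the sources used here, and the table has no detection calls. Probe sets were named from the platform annotation: 21181 carried 1 symbol, 1379 several and 2634 none, and the last groups were left out. A gene with several probe sets was taken by the one with the highest mean.

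Values were taken as log2(intensity + 83), 83 being the pooled 20th percentile, without further normalization. Genes above the pooled median (224) in at least 2 arrays of a fit were tested with limma 3.58.1 in R 4.3.3, two-sided, with Benjamini-Hochberg adjustment over all genes tested in each contrast. The population fit used 11 arrays and 12081 genes (7 residual degrees of freedom, prior 4.86), and the culture fit 13 arrays and 12368 genes (8, prior 4.46) with the 7-day and 14-day arrays merged. Precision is limited by how few arrays a group has. The fit was tested on simulated data.

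The members, lists and motifs were chosen with earlier results of these data known. Named genes are all members, from each list at most 4 called genes per direction by size and at most 2 not called, and per tested member the 3 other genes with the highest Pearson r. Promoter windows are from RefSeq (GRCm38.p6) and motif matches were found by exact letters. Alternatives were another pseudocount, filter, normalization, probe set rule and variance prior, a replicate block and leaving out each array. Whether replicate numbers pair the samples is not known. Same-numbered arrays of different populations had residual correlations of -0.11 to 0.11 over 15 pairs (median 0.016). Arrays of different numbers had -0.12 to 0.13 over 30 (median -0.021). Residuals were taken from the means of groups of 2 or 3 arrays, so these values cannot exclude pairing.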

Additional observations from a re-analysis of the deposited data

How the results depend on the processing

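The 8 tested genes gave 1027 values under the alternatives, over 54 differences. Of these, 976 kept their direction and their side of the thresholds, 21 lost a call, 21 gained one and 9 turned round. Every alternative left Ptgs2 higher in 1-day HSC (log2 4.19 to 5.50) and Hpgds (2.81 to 4.28) and Tbxas1 (2.701 to 4.53) higher in Kupffer cells. The turned differences were uncalled and near 0. Ptges in 1-day HSC minus hepatocytes, 0.021, was -0.070 after quantile normalization and -0.17 (without hepatocyte replicate 2) to 0.19 leaving out 1 array, with -0.078 without replicate 2 of 1-day HSC. Ptgis in Kupffer cells minus 1-day HSC, 0.049, was -0.060 without Kupffer cell replicate 2 and -0.14 to 0.24 leaving out 1 array, the lowest without replicate 2 of 1-day HSC. In culture, Tbxas1 (0.043) was -0.043 without replicate 1 of day 1 and -0.096 (without the 7-day array) to 0.18 leaving out 1 array. Hpgds (0.041) was -0.086 without the 14-day array and -0.13 (without replicate 1 of day 1) to 0.21 leaving out 1 array.

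The count of the 8 genes called in culture, 0, was 2 with the pooled 5th percentile (33) as pseudocount, through Ptges (1.01) and Ptger2 (-1.13), and 0 to 1 leaving out 1 array. The count of those different between long-cultured HSC and each fresh population, 1, was 2 with that pseudocount and 1 to 2 leaving out 1 array. The pooled median as pseudocount ended the calls of Ptges in 1-day HSC (0.94 over Kupffer cells, 0.78 over LSEC) and hepatocytes (0.93, 0.76), of Ptger2 in Kupffer cells (0.79 over LSEC, 0.77 over hepatocytes), 1-day HSC (0.65 over LSEC) and long-cultured HSC (-0.72 from Kupffer cells), and of Tbxas1 in long-cultured HSC (0.68 over LSEC). Quantile normalization ended 3 calls over LSEC, those of Ptges (0.98) and Ptger2 (0.96) in 1-day HSC and Tbxas1 (0.99) in long-cultured HSC, and gained Ptger2 in 1-day HSC over hepatocytes (1.01) and Ptger4 in long-cultured HSC from Kupffer cells (-1.02). The 5th percentile gained, in 1-day HSC, Tbxas1 over LSEC (1.24) and hepatocytes (1.10), Ptger2 over hepatocytes (1.24) and Ptger4 over LSEC (1.05), and in long-cultured HSC Ptges over hepatocytes (1.03) and Ptger4 from Kupffer cells (-1.10). A larger pseudocount shrinks the differences of low genes by construction, so the small receptor differences depend on the pseudocount. No background level was measured here.

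A replicate block left 3 genes higher in 1 population and 2207 called over all genes, against 3 and 2208 without it. It could be fitted to the 4 populations only, since the labels of the 7-day and 14-day arrays carry no number.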
